A study of Homo sapiens with 6 samples.

Results

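Zinc-finger genes of the 19p12 cluster were followed in RNA sequencing of HEK-293T cells (an immortalized line from human embryonic kidney) with and without THUMPD1. THUMPD1 is the adapter through which the acetyltransferase NAT10 acetylates cytidine in tRNA. The members were 36 of the 58870 genes of the deposited table, taken by symbol from the KRAB zinc-finger cluster that reaches from 19p13.11 into 19p12, and all 36 were found. They span chr19:19668796-24129968 (GRCh38), an interval of 4.46 Mb from ZNF101 to ZNF254. The cluster was chosen by the difference between THUMPD1 KO and WT in these same libraries, because it holds ZNF726 with its high fold change. That difference is therefore a description for the members. No p-value is given for any of them, and where a member is called higher or lower, the word only records its side of the threshold in the fit over all genes.

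The 2 groups were wild-type cells (WT, genotype label Thumpd+/+) and THUMPD1 knockout cells (THUMPD1 KO, genotype label Thumpd-/-), with 3 libraries each. Both were grown in DMEM, and no other agent or allele is named in the labels. The KO line was grown from 1 sorted cell after CRISPR-Cas9 editing with a pair of guides, so a difference between clones and an effect of the genotype cannot be told apart. The labels do not say what a replicate is, and p-values therefore measure only the spread between these libraries, which may be technical.

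Each member encodes, or is named as encoding, a C2H2 zinc-finger protein. In such proteins an array of fingers reads DNA, and a KRAB domain at the other end recruits TRIM28, which brings the H3K9 methyltransferase SETDB1 and silences the bound site. Many KRAB zinc-finger genes lie in tandem clusters that grew by gene duplication, and the family is best known for repression of retrotransposons. In this cluster ZNF91 is known to act on SVA elements and ZNF93 on LINE-1 elements.

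The libraries held 32225646 to 44099898 expected counts. THUMPD1 had 80.9 CPM ± 3.65 (SD, n = 3) in WT, against 11.04 CPM ± 0.918 (SD, n = 3) in THUMPD1 KO, where CPM (counts-per-million) is the count as a share of the library total. All 7 markers of HEK-293T cells (such as PAX2, SALL1 and NEFM) reached 1 CPM, none of 7 markers of mature kidney epithelium and none of 5 of blood did, and 3 of 5 of fibroblasts did (COL1A1, COL3A1 and LUM). The summed fibroblast markers lay at 15.9 to 20.9 CPM in WT, against 13.06 to 18.9 CPM in THUMPD1 KO.

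The promoters of the members resemble each other. RefSeq promoters (GRCh38.p14, 250 bases before to 50 after the start) were found for 28 of the 36 members. For any pair of them the aligned bases that matched came to a median of 79% of 300, with a range of 49 to 91% over 378 pairs, the closest being ZNF714 with ZNF431. The pentamer CCAAT, searched on both strands, was present in 27 of the 28 (96.4%), against 34.6% of all 35116 promoters of the table, and ZNF682 was the exception. The longer word CCAATCA, which includes CCAAT, was present in the same count of 27, against 6.95% of all promoters. In 17 of the 28 (60.7%) a pair of CCAAT pentamers stood on one strand with starts 28 or 29 bases apart, an arrangement noticed in these sequences and found in 0.353% of all promoters. Of the 124 promoters with such a pair, 24 lie on chromosome 19, and both numbers include the members themselves.

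To let the promoters be compared across the range of responses, the 3 tested members with the highest and the 3 with the lowest log2 fold change are shown, each 5′ to 3′ on its own strand, with CCAAT or its complement in capitals. ZNF726 lies at chr19:23914636-23914935 (plus strand), ZNF429 at chr19:21505352-21505651 (plus), ZNF681 at chr19:23758842-23759141 (minus), ZNF493 at chr19:21396883-21397182 (plus), ZNF492 at chr19:22634074-22634373 (plus) and ZNF737 at chr19:20565732-20566031 (minus).
ZNF726: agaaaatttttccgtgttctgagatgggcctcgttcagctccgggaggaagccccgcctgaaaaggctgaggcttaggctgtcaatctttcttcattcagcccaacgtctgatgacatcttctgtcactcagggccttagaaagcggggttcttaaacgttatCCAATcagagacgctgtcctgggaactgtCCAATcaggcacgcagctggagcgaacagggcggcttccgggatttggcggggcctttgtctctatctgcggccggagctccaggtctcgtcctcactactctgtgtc
ZNF429: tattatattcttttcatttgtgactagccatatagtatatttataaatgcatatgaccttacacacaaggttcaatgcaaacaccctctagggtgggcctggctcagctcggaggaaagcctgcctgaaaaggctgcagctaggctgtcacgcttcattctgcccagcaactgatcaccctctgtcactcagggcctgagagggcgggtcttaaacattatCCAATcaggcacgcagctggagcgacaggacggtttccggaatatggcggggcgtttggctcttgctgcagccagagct
ZNF681: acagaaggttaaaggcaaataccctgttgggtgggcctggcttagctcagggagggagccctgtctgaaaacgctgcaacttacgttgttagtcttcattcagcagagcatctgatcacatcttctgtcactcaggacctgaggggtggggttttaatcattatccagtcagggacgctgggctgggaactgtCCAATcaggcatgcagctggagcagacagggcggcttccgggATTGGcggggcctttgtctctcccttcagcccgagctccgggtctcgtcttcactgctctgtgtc
ZNF493: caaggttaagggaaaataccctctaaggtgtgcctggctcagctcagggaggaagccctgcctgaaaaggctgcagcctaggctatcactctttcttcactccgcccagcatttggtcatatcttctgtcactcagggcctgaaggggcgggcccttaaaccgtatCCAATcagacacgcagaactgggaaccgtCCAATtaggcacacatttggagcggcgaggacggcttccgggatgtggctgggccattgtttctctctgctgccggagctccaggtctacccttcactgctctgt
ZNF492: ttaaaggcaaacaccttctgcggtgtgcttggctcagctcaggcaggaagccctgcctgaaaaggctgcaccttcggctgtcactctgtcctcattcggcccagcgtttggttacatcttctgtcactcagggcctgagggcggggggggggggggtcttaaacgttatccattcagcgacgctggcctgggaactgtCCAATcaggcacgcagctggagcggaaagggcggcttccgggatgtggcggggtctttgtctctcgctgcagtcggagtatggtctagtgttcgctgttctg
ZNF737: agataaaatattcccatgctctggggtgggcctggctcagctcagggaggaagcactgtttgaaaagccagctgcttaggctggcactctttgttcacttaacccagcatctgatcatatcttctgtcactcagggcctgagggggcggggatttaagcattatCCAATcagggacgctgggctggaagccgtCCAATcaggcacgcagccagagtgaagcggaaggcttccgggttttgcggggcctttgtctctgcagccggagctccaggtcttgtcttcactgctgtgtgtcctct

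ZNF726, with the highest fold change, and ZNF737, the member called lower, both carry the CCAAT pair, at −87 and −58 in ZNF726 and at −86 and −57 in ZNF737, counted from the start. ZNF429 has 1 CCAAT at −29, and ZNF492 has 1 at −52. ZNF681 has 1 CCAAT at −57 and the complement ATTGG at −15. In a split by transcription, CCAATCA was present in 19 of 19 promoters of tested members and in 8 of 9 of the others, the CCAAT pair in 10 and in 7, and the median number of CpG was 10 in both, against 14 over all promoters. These are matches of letters, and binding was not measured here.

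The encoded proteins differ in the number of fingers, and identity between the proteins was not computed. A pattern with the canonical spacing of cysteines and histidines was found 5 times in ZNF738 and 36 times in ZNF208, with a median of 13. ZNF91 held 31 and ZNF729 held 34, while ZNF726 held 14, ZNF429 15, ZNF681 11 and ZNF737 13. A pattern from the core of the KRAB A box was found in a coding transcript of 33 members and not in those of ZNF85, ZNF492 and ZNF714, which says only that this pattern is not in their annotated coding sequences.

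The cluster was a mosaic of transcribed and near-silent genes in both genotypes. The filter asked for 1 CPM or more in 3 or more libraries. It was passed by 21 members, which were tested, while 15 stayed under it. Of the 15, ZNF43, ZNF626, ZNF99, ZNF728 and ZNF729 had 0 counts in every library, where 3 counts would stand for 0.0680 to 0.0931 CPM. The other 10 had at most 14 counts in any library, or 0.332 CPM. Along the chromosome, tested and untested members formed 9 runs. ZNF253, ZNF93, ZNF682, ZNF90 and ZNF486 stood together under the filter, as did the 6 members from ZNF43 to ZNF98 and then ZNF99, ZNF728 and ZNF730. The longest tested run had 10 members, from ZNF66 to ZNF100. The pattern was the same in WT and THUMPD1 KO but for 3 genes. ZNF681 and ZNF726 exceeded 1 CPM in the KO libraries alone, and ZNF737 exceeded it in all WT libraries but in 1 KO library.

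**Figure D1:**
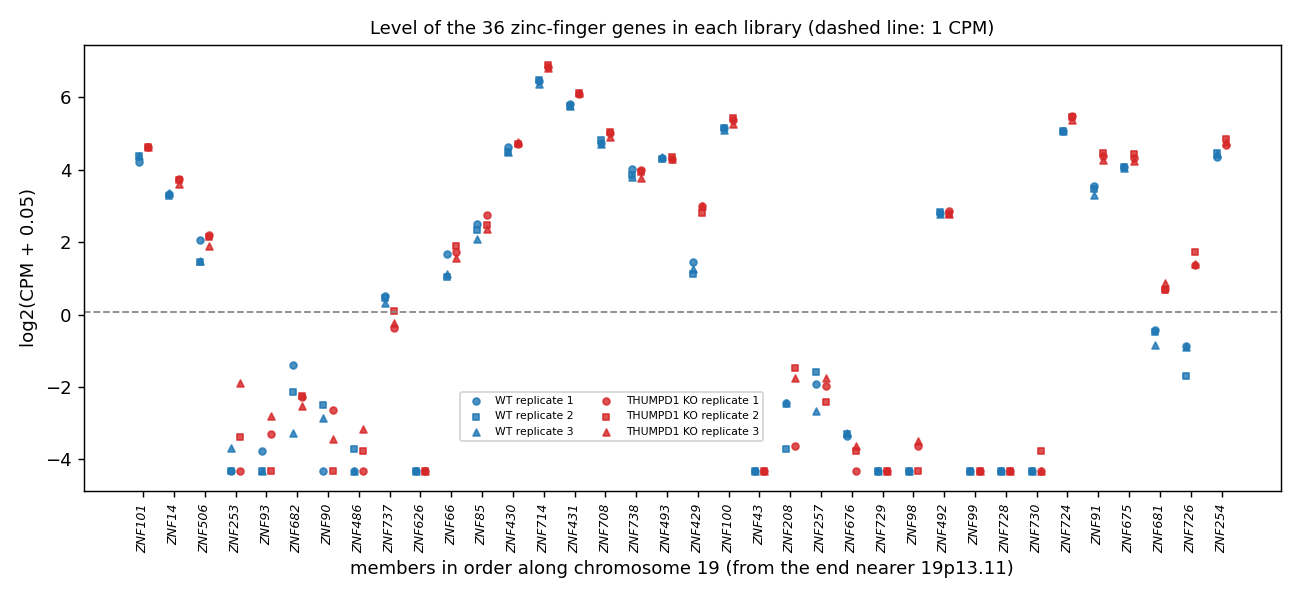
Level of the 36 members in order along chromosome 19, as log2(CPM + 0.05) on the vertical axis, with 1 point per library (blue WT, red THUMPD1 KO, shape for the replicate). The lowest points are counts of 0, and the dashed line marks 1 CPM. Runs of near-silent genes alternate with runs of transcribed genes in the same places in both genotypes. ZNF726 and ZNF681 lie under the line in WT and above it in THUMPD1 KO, and were tested only because of their KO libraries.

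ZNF93, the LINE-1 repressor, was among the near-silent members. It had 1, 0 and 0 counts in WT replicates 1, 2 and 3, against 2, 0 and 3 in THUMPD1 KO, all at or under the limit of 3 counts, so no fold is given. ZNF253 had 0, 0 and 1 counts in WT, against 0, 2 and 7 in THUMPD1 KO, and ZNF208 had between 1 and 5.69 in WT and between 1.16 and 13.48 in THUMPD1 KO. The highest of this set were ZNF682, with 14, 7 and 2 counts in WT, against 6, 7 and 4 in THUMPD1 KO, and ZNF257, with 9, 11 and 4 in WT, against 8, 6 and 8 in THUMPD1 KO. ZNF676 had 2, 2 and 2 counts in WT, against 0, 1 and 1 in THUMPD1 KO. ZNF90, ZNF486, ZNF98 and ZNF730 had at most 5 counts in a library. A change in these genes was not detectable at this depth.

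Among tested members, levels in WT ran from 0.412 CPM (ZNF726) to 87.0 CPM (ZNF714). Per kilobase of the longest annotated transcript the order changed, and ZNF724 stood first in WT with 11.98 CPM per kb ± 0.033 (SD, n = 3), followed by ZNF714 with 9.94 ± 0.409. Next came ZNF708 (6.71 ± 0.285), ZNF100 (6.19 ± 0.155) and ZNF430 (5.97 ± 0.318), and in this order ZNF100 and ZNF430 lay within their spread of each other. The 3 most abundant members held 44.9% of the summed counts of the cluster.

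The comparison of THUMPD1 KO with WT showed a higher summed level of the cluster in THUMPD1 KO. The 36 members together had 404, 401 and 388 CPM in WT replicates 1, 2 and 3, against 504, 515 and 485 CPM in THUMPD1 KO. Every KO library lay above every WT library, and the WT mean was 398 CPM ± 8.68 (SD, n = 3) and the KO mean 502 CPM ± 15.2 (SD, n = 3), a ratio of 1.26. This sum does not depend on how reads were divided among similar members, but it does depend on their division with similar genes outside the list. In bulk RNA, more cells that use a gene and more RNA per cell cannot be told apart.

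Of the 21 tested members, limma-voom called 14 higher and 1 lower at an adjusted p under 0.05, against a background over all 15088 tested genes of 26.7% called, 13.7% higher and 13.0% lower. The same contrast chose the cluster, and 2 of the 14 passed the filter only through their KO libraries, so nothing is read from this count or from how it holds under other settings. The CPM values of all 3 KO libraries exceeded those of all 3 WT libraries in 14 members, an ordering met by 24.5% of all tested genes. In 6 members the groups overlapped. A log2 fold change of at least 1 was reached by 3 of the called members, ZNF726, ZNF429 and ZNF681, where 0.828% of all tested genes were called higher with such a change. ZNF91, at 0.94, lay just under that size.

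ZNF726 (ENSG00000213967.10, chr19:23914876-23945159, plus strand) had the highest fold change of the cluster on a small number of reads. Its counts were 21, 10 and 18 in WT, against 98, 145 and 83 in THUMPD1 KO. The lowest KO library had several times the counts of the highest WT library. ZNF726 passed the filter only through its KO libraries, and so had to differ. The level came to 0.412 CPM ± 0.136 (SD, n = 3) in WT, against 2.80 CPM ± 0.428 (SD, n = 3) in THUMPD1 KO, a ratio of 6.78. The log2 fold change was 3.18 (SE 0.42) after quantile normalization and 2.73 by edgeR, and it ranged from 2.49 to 3.59 as single libraries were left out.

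ZNF429 (ENSG00000197013.10, chr19:21496682-21556270, plus strand) stood second. Its counts of 112, 83 and 88 in WT compared with 310, 304 and 257 in THUMPD1 KO, and the groups were far apart. The WT level was 2.38 CPM ± 0.270 (SD, n = 3) and the KO level 7.62 CPM ± 0.625 (SD, n = 3), for a log2 fold change of 1.62 (SE 0.12). ZNF681 (ENSG00000196172.9, chr19:23739195-23758891, minus strand) had 29, 26 and 19 counts in WT, against 61, 69 and 57 in THUMPD1 KO. All WT libraries stood under 1 CPM and all KO libraries above it, and the log2 fold change was 1.23 (SE 0.19). ZNF681 passed the filter only through its KO libraries, and so had to differ.

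ZNF91 (ENSG00000167232.14, chr19:23304991-23395471, minus strand), the SVA repressor, rested on more reads. It had 491, 435 and 366 counts in WT, against 807, 971 and 622 in THUMPD1 KO. ZNF91 stood at 10.9 CPM ± 0.943 (SD, n = 3) in WT, against 20.7 CPM ± 1.36 (SD, n = 3) in THUMPD1 KO, a ratio of 1.91, and no KO library came near the WT values. The log2 fold change of 0.94 (SE 0.082) stayed between 0.88 and 0.98 when any library was left out. ZNF91, ZNF681 and ZNF726 lie in the last part of the cluster, with ZNF675 between ZNF91 and ZNF681.

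**Figure D2:**
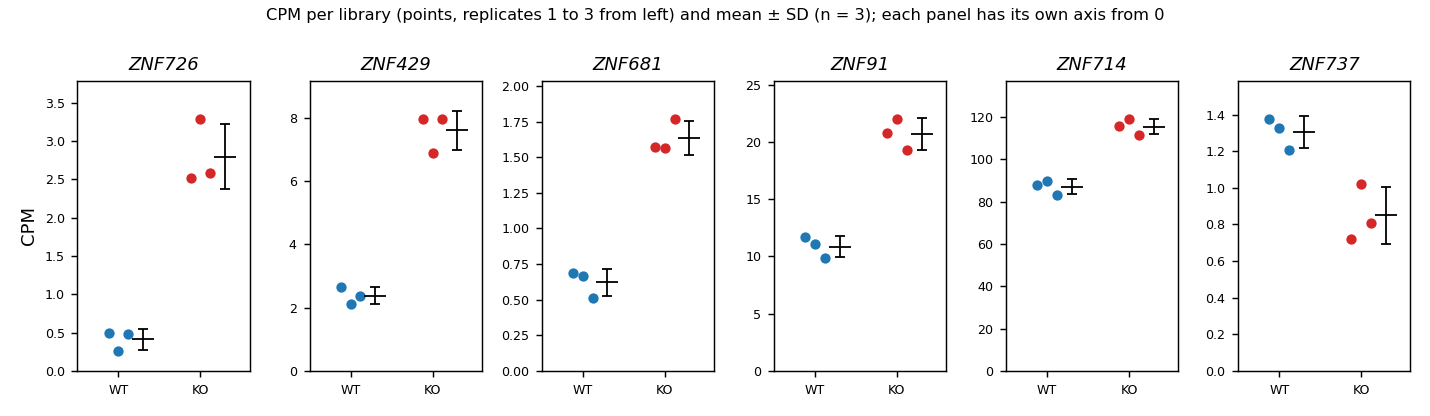
CPM in each library for ZNF726, ZNF429, ZNF681, ZNF91, ZNF714 and ZNF737, with WT in blue, THUMPD1 KO in red and the mean ± SD (n = 3) in black beside the points. Each panel has its own axis from 0. The panels were picked for large changes, and ZNF714 as the most abundant member, so nothing is read from their lack of overlap. Of the 21 tested members, 6 overlapped between genotypes, and 24.5% of all tested genes were higher in every KO library. Among the 6 shown, ZNF737 alone is lower in THUMPD1 KO.

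The other 10 members called higher had small log2 fold changes, from 0.20 to 0.39, with SEs of 0.043 to 0.079. ZNF714 (ENSG00000160352.15), the most abundant member, had 87.0 CPM ± 3.58 (SD, n = 3) in WT, against 116 CPM ± 3.72 (SD, n = 3) in THUMPD1 KO, a log2 fold change of 0.39 (SE 0.047). Its counts were 3705.71, 3525 and 3095 in WT, against 4491, 5255.75 and 3601 in THUMPD1 KO. In CPM the 3 KO libraries stood above the 3 WT libraries. At the 19p13.11 end, ZNF101 gave counts of 784, 818 and 769 in WT, against 961, 1089 and 801 in THUMPD1 KO, and ZNF14 had 424, 376 and 384 in WT, against 518, 581 and 390 in THUMPD1 KO. In CPM neither gene overlapped between genotypes, with log2 fold changes of 0.32 (SE 0.071) for ZNF101 and 0.37 (SE 0.079) for ZNF14.

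The rest of this set were ZNF724 (0.37), ZNF254 (0.37), ZNF431 (0.33), ZNF675 (0.28), ZNF708 (0.25), ZNF100 (0.22) and ZNF430 (0.20). ZNF675, also known as TIZ, is an inhibitor of TRAF6 signaling. The calls of ZNF430, ZNF708, ZNF100 and ZNF675 were lost under at least 1 other setting, and ZNF430 was called under 7 of 16 of them. For ZNF675, the loss came without THUMPD1 KO replicate 2, where it stood at 0.22.

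ZNF737 (ENSG00000237440.9, chr19:20535825-20565809, minus strand) went the other way. Its counts were 58, 52 and 45 in WT, against 28, 45 and 26 in THUMPD1 KO, and in CPM the highest KO library (1.02) lay under the lowest WT library (1.21). The log2 fold change was −0.78 (SE 0.19), and the call was lost with DESeq2 (−0.64) and without a CPM filter (−0.74). It is the only transcribed member between ZNF486 and ZNF66, with ZNF626 beside it at 0.

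The other 6 tested members were not called. ZNF66 (0.39, SE 0.17) and ZNF506 (0.35, SE 0.15) had estimates within the range of the called members but larger SEs, and were called once WT replicate 1 was left out (0.55 and 0.50). ZNF85 stood at 0.17 (SE 0.12), under the lowest member called higher, and at 0.073 to 0.23 as single libraries were left out. ZNF738 (0.02, SE 0.077), ZNF493 (0.004, SE 0.065) and ZNF492 (−0.02, SE 0.089) had estimates near 0. ZNF493 had 20.1 CPM ± 0.384 (SD, n = 3) in WT, against 19.9 CPM ± 0.576 (SD, n = 3) in THUMPD1 KO. ZNF738 and ZNF493 are neighbors in the longest transcribed run, with ZNF708 and ZNF429 on either side of them.

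**Figure D3:**
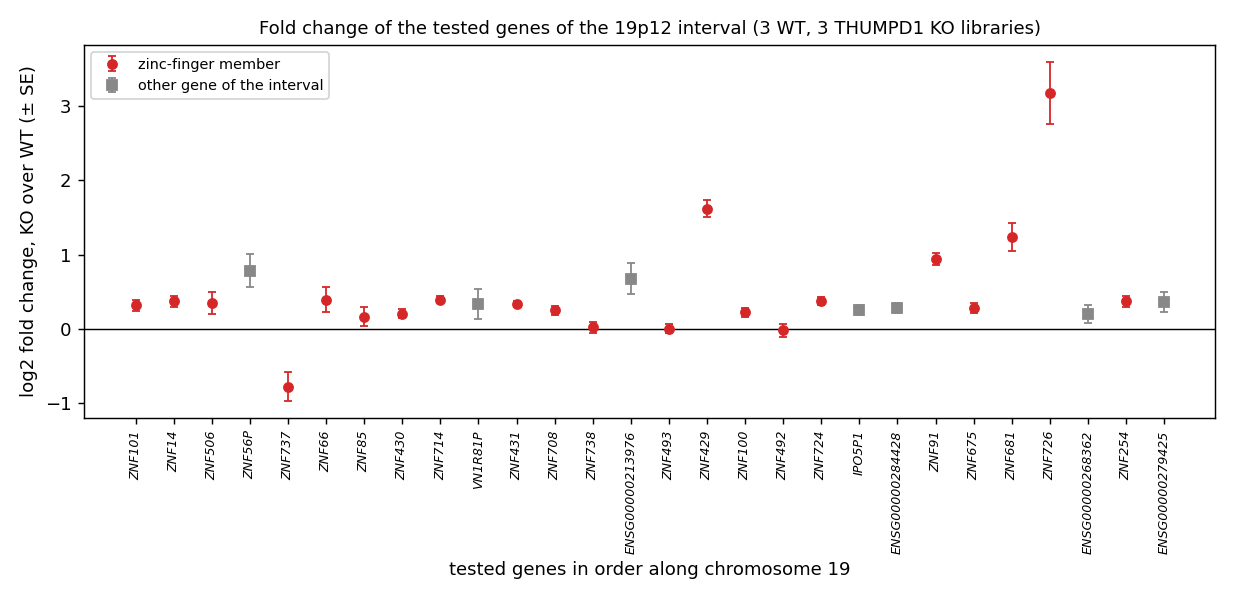
Log2 fold change (vertical axis, THUMPD1 KO over WT, ± SE) of the 21 tested members in red and of 7 other tested genes of the interval in gray, in order along chromosome 19. Most members lie between 0 and 0.4, ZNF429, ZNF91, ZNF681 and ZNF726 stand above, and ZNF737 alone lies clearly under 0.

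Other genes of the same interval are mostly pseudogenes and long noncoding RNAs. Of 170 in the table, 7 passed the filter and 4 of these were called higher by limma-voom, where 13.7% of all tested genes were, with a median log2 fold change over the 7 of 0.34. ZNF56P, a zinc-finger pseudogene that overlaps no listed gene, gave counts of 26, 26 and 36 in WT, against 62, 53 and 49 in THUMPD1 KO (log2 fold change 0.79, SE 0.23). It passed the filter only through its KO libraries, and so had to differ, and no p is given for it. IPO5P1, a pseudogene of the import receptor IPO5, had 541, 471 and 443 in WT, against 599, 612 and 467 in THUMPD1 KO (0.26, SE 0.068, adjusted p = 0.0171, and 0.0128 to 0.0704 over the other settings). VN1R81P, a vomeronasal receptor pseudogene inside ZNF714, stood at 0.34 (SE 0.20, adjusted p = 0.246). The count of 4, ZNF56P included, was not stable. It was 5 with the replicate block, 1 with WT replicate 2 or THUMPD1 KO replicate 3 left out, and 2 with WT replicate 1 or WT replicate 3 left out. The other 2 called genes are ENSG00000284428, beside IPO5P1, and ENSG00000213976, which lies within ZNF738 on the same strand.

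Within ZNF726 lie 2 short annotated genes on its own strand, named here after their values were seen. ENSG00000269397 had 2, 3 and 1 counts in WT, against 20, 21 and 17 in THUMPD1 KO. ENSG00000269421 had 1, 0 and 0 counts in WT, against 4, 5 and 10 in THUMPD1 KO. Both were under the filter, both had more counts in every KO library than in any WT library, and which reads belong to them and which to ZNF726 is uncertain.

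A list of co-repressors of KRAB proteins and of other chromatin-silencing genes, called co-repressors here for short, was then examined. All 28 genes of this list were tested, 1 was called higher and 4 lower (17.9%, against 26.7% of all tested genes), and the median log2 fold change was −0.035. With the replicate block 8 were called, where 5297 of all 15088 tested genes were. SETDB1, the H3K9 methyltransferase, rose from 60.4 to 78.7 CPM (log2 fold change 0.37, SE 0.055, adjusted p = 0.000737, and 3.52e-07 to 0.00634 over the other settings). TASOR and MPHOSPH8, subunits of the HUSH silencing complex, were lower, at −0.21 (adjusted p = 0.00560) and −0.20 (adjusted p = 0.0127, and up to 0.0584 over the other settings). The third subunit, PPHLN1, named here after its value was seen, was at 0.041 (SE 0.043, adjusted p = 0.507). EHMT2, an H3K9 methyltransferase also known as G9a, was at −0.24 (adjusted p = 0.00627). UHRF1, a partner of the maintenance DNA methyltransferase, was at −0.16 (adjusted p = 0.0154, and up to 0.0754 over the other settings). TRIM28 itself, the direct partner of the KRAB domain, was at −0.066 (SE 0.051, adjusted p = 0.375), and at 0.024 once trends along GC content and length were removed. MPHOSPH8 and UHRF1 were thus not called under every setting.

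Zinc-finger genes elsewhere were set beside the cluster. They were protein-coding genes taken by symbol (ZNF and a number), a KRAB domain was not checked, and the share of KRAB genes may differ between lists. Over all 15088 tested genes, 26.7% were called, 13.7% higher and 13.0% lower. The replicate block gave 5297 calls over all tested genes. Removal of trends along GC content and length gave 4465, of which 2253 were higher. Of 213 other ZNF genes on chromosome 19, 182 were tested and 106 were called higher and 3 lower (59.9% called), with a median log2 fold change of 0.29. The tested members of the cluster had a median of 0.33. Of 266 ZNF genes on other chromosomes, 230 were tested, 40 were called higher and 21 lower (26.5% called), and the median was 0.041. Other protein-coding genes of chromosome 19 had a median of −0.00095 over 693 tested genes, 84 of them called higher and 89 lower (25.0% called). With trends along GC content and length removed, 233 of these were called, 173 of them higher. The 10 tested genes on the 19p13.11 side of the cluster had a median of −0.0069, with 1 called higher and 2 lower. That sign was not stable, since the median was 0.021 with 5 called under the replicate block, and 0.0999 with 6 called, 4 of them higher, once the GC and length trends were removed. The 10 tested genes beyond ZNF254, which start across the centromere, had a median of 0.20, with 3 called, each of them higher. All 3 are long noncoding RNAs, namely LINC00662, LINC02987 and ENSG00000261770, which lies within LINC00662 on the same strand. Which reads belong to ENSG00000261770 and which to LINC00662 is uncertain. The protein-coding genes among the 10 were not called and stood at 0.013 to 0.23. The differences between these lists were not tested, and the lists of flanking genes and of other chromosomes were drawn up after the values were seen.

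**Figure D4:**
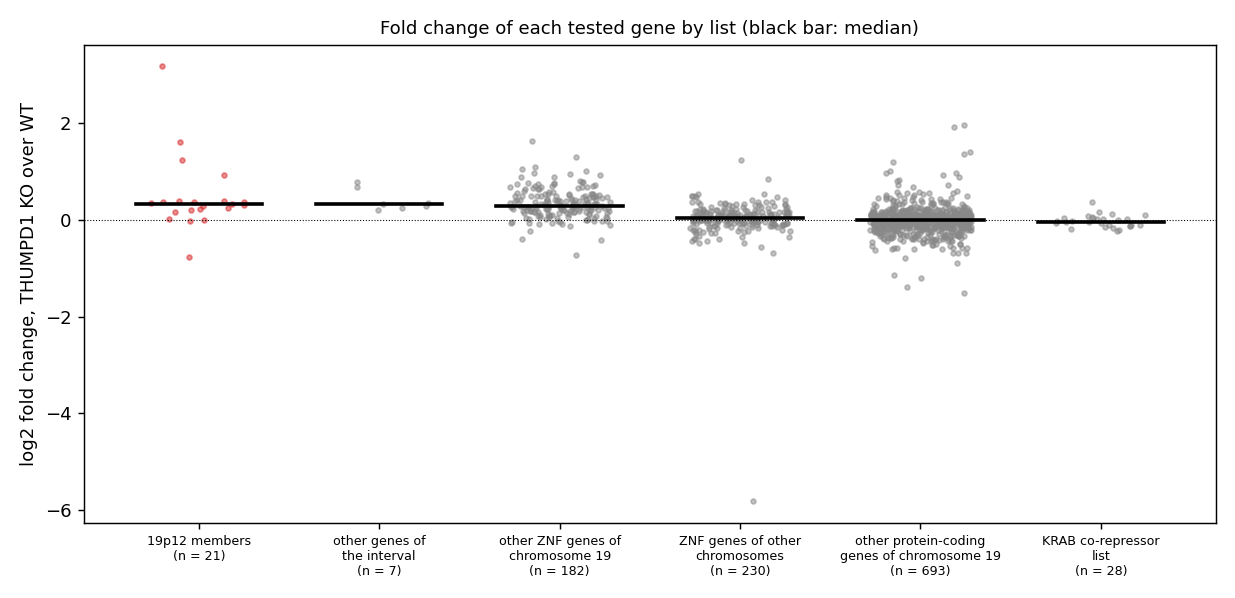
Log2 fold change (vertical axis, THUMPD1 KO over WT) of each tested gene, 1 point per gene, for the members (red) and 5 other lists (gray), with the median as a black bar and the number of genes under each name. The members and the other ZNF genes of chromosome 19 have medians of 0.33 and 0.29, and the ZNF genes of other chromosomes have a median of 0.041.

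The members are poor in GC and share sequence with each other. Their longest transcripts had a median GC content of 37.2%, with a range of 33.9 to 45.0%, against 47.5% over all tested genes. Once trends of the libraries with GC content and length were taken out, the median of the tested members went from 0.33 to 0.28, and that of the other protein-coding genes of chromosome 19, with a median GC content of 60.2%, from −0.00095 to 0.061. Since members are similar, the share of each member's 50-base words that also occur in transcripts of other genes was counted. The median share was 6.95%, and 31 members shared at most 19.5%. ZNF98 (58.1%, mostly with ZNF492), ZNF724 (55.4%, mostly with ENSG00000283201), ZNF492 (33.9%, mostly with ZNF98), ZNF208 (33.8%) and ZNF738 (28.7%, mostly with ENSG00000213976) shared more, and the division of reads between these genes and their partners is uncertain. ZNF726, ZNF429, ZNF681, ZNF91 and ZNF737 were not among them.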

How the data were processed

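Total RNA from HEK-293T cells was sequenced in paired-end mode after ribosomal RNA depletion, in 6 libraries. Reads were aligned by the authors with STAR to GRCh38, and the deposited values are expected counts per gene from RSEM without scaling. Whether counting used strand is not given in the sources used here. The methods name GENCODE 46, while positions and types here came from GENCODE 44, matched by Ensembl ID for 58517 of 58870 genes. ZNF737 was found by its ID, since the table lists it under a clone name.

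Groups and replicate numbers came from the labels. The fit followed the study, with a filter of 1 CPM (asked for here in 3 or more libraries), quantile normalization and limma-voom from limma 3.58.1 in R 4.3.3, two-sided, with Benjamini-Hochberg adjustment over 15088 genes and a threshold of 0.05. Alternatives were TMM, library sizes alone, edgeR 4.0.16 (quasi-likelihood test) and DESeq2 1.42.0 on rounded counts, other filters, a replicate block, removal of trends along GC content and length (natural splines, 5 degrees of freedom), and each library left out. The fits were tested on simulated data.

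Same-numbered libraries deviated together from their genotype means (r = 0.287, 0.257 and 0.162 over 11717 genes, against −0.276 to 0.113 for other pairs). Since deviations were taken from genotype means, positive values for some pairs push those of other pairs down. The numbers were taken as a possible pairing in the replicate block, while the main fit used genotype alone.

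The members and all lists were chosen with earlier results of these data known. Counts per library are given for members whose log2 fold change reached 1 in size, ZNF91, ZNF93, ZNF14, ZNF101 and the most abundant member. They are also given for members under the filter, except that ZNF208, ZNF90, ZNF486, ZNF98 and ZNF730 have only a range or a maximum. Beyond this rule they are given for ZNF737. Of other interval genes, those tested with a symbol are named, and of the co-repressors TRIM28, SETDB1 and the 4 next smallest adjusted p. No protein sequence was used here.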

Additional observations from a re-analysis of the deposited data

How the results depend on the processing

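Over 16 alternatives, 333 estimates of single members were made. Of these, 315 kept their side of the threshold, 16 lost the call, 2 gained it and none reversed a called direction. In 18 members the sign never changed, and 3 members with estimates near 0 changed it. These counts describe members chosen by the same contrast and support nothing. The number of members called was 15, and it lay between 11, with THUMPD1 KO replicate 2 left out, and 17, with WT replicate 1 left out. It was 15 with the replicate block, 13 with DESeq2, and 14 with trends along GC content and length removed. With at least 1 CPM in all 6 libraries it was 12 of 18 tested, since ZNF726, ZNF681 and ZNF737 were then not tested. Without a CPM filter it was 13 of 31 tested. After the data were seen, members sharing at least 20% of their 50-base words were left out, and 14 calls remained in the count. The summed level stood at a log2 ratio of 0.34, and between 0.31 and 0.36 under the 9 alternatives run for it (TMM, 2 in which 1 member was left out and 6 in which 1 library was). For other genes of the interval, 4 calls became 5 with TMM, library sizes alone, edgeR, no CPM filter or the replicate block, 2 with at least 1 CPM in all 6 libraries, where fewer genes were tested, and 1 to 3 as libraries were left out. For the co-repressors, 5 calls became 8 with the replicate block, 8 with trends along GC content and length removed and 10 with both. Over all 15088 tested genes, calls went from 4025 to 5297 with the block and to 4465 with those trends removed. The cause was not tested. The replicate block also moved the calls from 109 to 122 for other ZNF genes of chromosome 19, from 61 to 82 for ZNF genes of other chromosomes, and, in the 10 genes on each side of the cluster, from 3 to 5 before it and from 3 to 4 after it. It changed no call of a member. Fits without 1 library leave 2 in its genotype and pool the spread. Low counts limit ZNF726, ZNF681 and ZNF737, and no change could be measured in the 15 members under the filter.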
